A study of Mus musculus with 4 samples.

Results

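The cells described here are the T cells, natural killer (NK) cells and innate lymphoid cells of 2 single-cell RNA libraries of dissociated skeletal muscle from a mouse model of Duchenne muscular dystrophy (DMD). One library came from muscle given LNP-CRISPR (lipid nanoparticles that deliver a CRISPR editor) and the other from muscle given vehicle, and both carry the cell preparation label Bulk. A further pair of libraries, again LNP-CRISPR and vehicle, was made with a satellite cell isolation kit. The labels give no strain, dystrophin allele, sex, age, muscle, dose, route, time after treatment or number of animals, and each group is 1 library. Differences between the libraries therefore have no replicate check and no test, and the exact 95% intervals below cover counting error only.

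Members were chosen by their own counts. Barcodes with fewer than 200 detected genes, or with more than 20% of their transcripts from mitochondria, were dropped first. A remaining barcode was a member if it held at least 3 UMIs (unique molecular identifiers, each counting 1 captured transcript) summed over Cd3e, Cd3g, Cd3d, Nkg7, Klrb1c, Il7r, Gata3 and Icos, at least 1 Ptprc UMI and no Pdgfra UMI (a marker of fibro-adipogenic cells), with Lyz2, C1qa and Cd74 together below 1% of its UMIs. The rule gave 119 members, 70 of 1152 kept barcodes in the LNP-CRISPR library and 49 of 1204 in the vehicle library, out of 6512 barcodes in all 4 libraries. Levels of these genes within the members are a description of the choice and support nothing.

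T cells carry an antigen receptor that signals through the CD3 chains encoded by Cd3e, Cd3d and Cd3g. NK cells lack that receptor and kill with granules that hold perforin and granzymes. Group 2 innate lymphoid cells (ILC2s) also lack it, depend on the transcription factor GATA3, and respond to alarm signals such as interleukin 33 by secreting interleukin 5 and interleukin 13. Interleukin 5 is the growth and survival factor of eosinophils. In dystrophic muscle, lymphocytes lie among a larger infiltrate of macrophages and other myeloid cells around degenerating and regenerating fibres.

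Il5 and Il13 are neighbouring type 2 cytokine genes that differed widely in these cells, so the 250 bases before the annotated start of each are shown, 5′ to 3′ in the direction of the gene. Capitals mark matches, on either strand, to the GATA motif AGATAA, the motif TGATAA, the motif AGATAG or the motif TGATAG. The sequences are those of RefSeq on GRCm38.p6, Il5 at chr11:53720544-53720793 on the plus strand and Il13 at chr11:53634703-53634952 on the minus strand.
Il5: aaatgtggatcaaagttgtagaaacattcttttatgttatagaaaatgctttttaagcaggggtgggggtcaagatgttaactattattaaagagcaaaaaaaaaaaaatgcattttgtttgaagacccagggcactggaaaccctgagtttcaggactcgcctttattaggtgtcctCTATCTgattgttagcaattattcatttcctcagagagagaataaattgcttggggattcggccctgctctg
Il13: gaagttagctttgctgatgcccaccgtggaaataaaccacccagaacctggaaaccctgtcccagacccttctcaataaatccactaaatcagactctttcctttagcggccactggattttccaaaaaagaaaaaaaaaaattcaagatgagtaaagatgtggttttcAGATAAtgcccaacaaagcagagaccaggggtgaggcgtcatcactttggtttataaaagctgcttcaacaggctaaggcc
Each window held 1 match, so no matches overlapped. The Il5 match lay at -72 to -67 on the opposite strand of the gene, and the Il13 match at -81 to -76 on the strand of the gene. A match to these letters is common, being present in 26.5% of the windows of the same length before 32851 annotated gene starts, and describes the sequence only.

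The label held for most but not all members. With the same genes, 37 members passed a T gate (at least 2 CD3 UMIs), 30 an NK gate (at least 2 Nkg7 and Klrb1c UMIs, no T gate) and 11 an ILC2 gate (at least 2 Gata3 and Il5 UMIs, not T, and no fewer than its Nkg7 and Klrb1c UMIs). The other 41 members passed no gate. One LNP-CRISPR barcode in the ILC2 gate, with 93988 UMIs, held 127 UMIs of satellite cell markers, 3 Gata3 UMIs and no Il5 UMI, and it was left out of the lymphoid groups. The remaining 77 gated barcodes, 45 from the LNP-CRISPR library and 32 from the vehicle library, are called gated lymphoid barcodes below. No barcode string was shared between both Bulk libraries.

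The 41 ungated members did not look lymphoid by the marker lists. Il7r, the interleukin 7 receptor chain, was the only rule gene detected in 38 of them. Lyz2 (lysozyme) had a UMI in 37 and at least 20 UMIs in 33, and Csf1r, the receptor for macrophage colony-stimulating factor, had a UMI in 37. Their leading genes against the gated barcodes were Cd36, Chil3, C3ar1, Gpnmb, Spp1, Rab7b, Lpl, Pf4, Ms4a7 and Lhfpl2, and Cd36, a scavenger receptor, had 671 UMIs in 30 of the 41 and none in the 77 gated barcodes. Siglech, a marker of plasmacytoid dendritic cells, had at least 10 UMIs in 3. The summed macrophage and monocyte list was 8258 CPM (counts per 1000000 nuclear-encoded UMIs) in the ungated LNP-CRISPR members and 9992 CPM in the ungated vehicle members, against 763 and 582 CPM in gated LNP-CRISPR and gated vehicle barcodes. One ungated LNP-CRISPR barcode of 1137 UMIs was an exception, with 3 Icos UMIs and a T list of 7491 CPM.

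The thresholds cut through a continuous range. Among barcodes that met all other criteria, 7 had 2 rule UMIs and were left out, while 13 had 3 and 8 had 4, and 77 had at least 10. For the myeloid limit, 31 members lay between 0.5% and 1%, and 35 barcodes between 1% and 2% were left out.

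**Figure D1:**
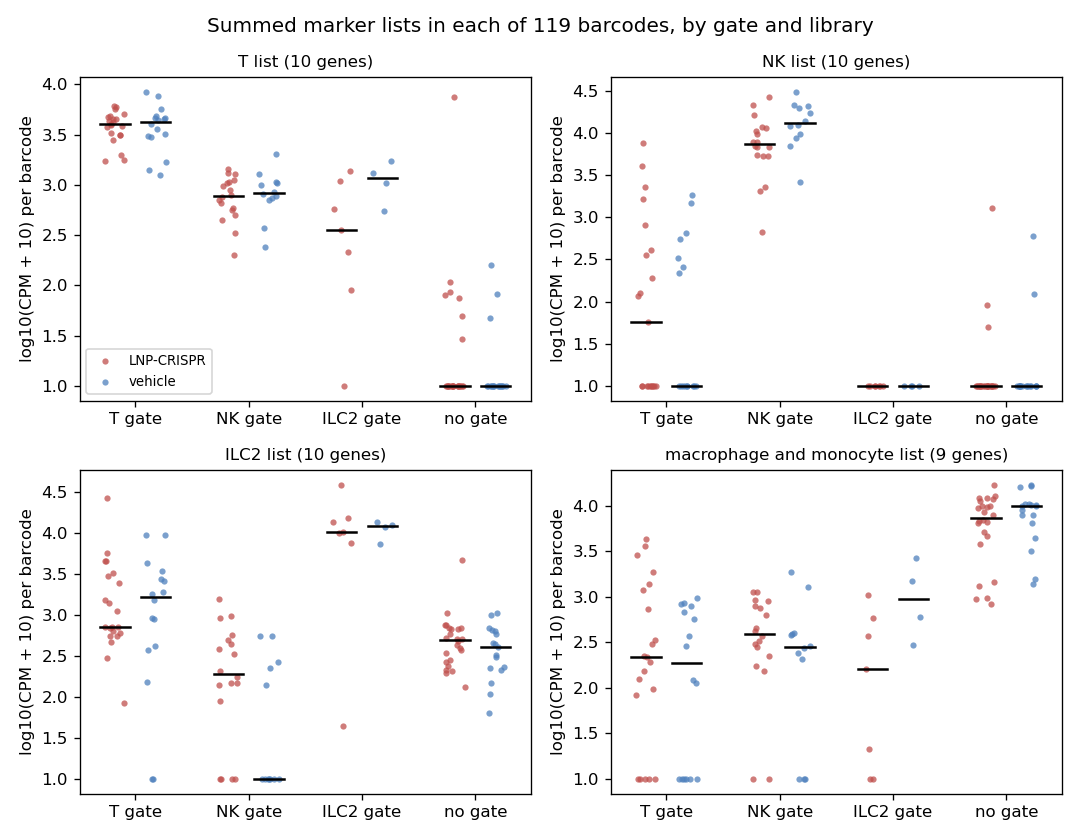
Summed level of 4 marker lists in each of the 119 members, as log10(CPM + 10), by gate, with LNP-CRISPR left of vehicle and a bar at the median. The T, NK and ILC2 lists hold the genes that set the gates, so each is highest in its own gate by that choice, and the macrophage and monocyte list was highest in the barcodes with no gate.

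The gated barcodes carried genes of their class that the gates had not used. The 10 genes outside the rule most enriched in the T gate were Ccr7, Cd6, Gm8369, Trac, Ctla4, Cd8a, Cd8b1, Fam169b, Trib2 and Kbtbd11. Those of the NK gate were Klra4, Styk1, Klra9, Klra3, Klra8, Gzma, Nrarp, Prf1, Ncr1 and Klrc2. Those of the ILC2 gate included Hdc, Hlf, Calca, Hs3st1, Igsf5, Akap12, Gm43445, Npnt and Il2ra. Trac, the constant region of the T cell receptor alpha chain, had a UMI in 29 of 37 T-gate barcodes and in 2 of the other 81 members. Gzma, granzyme A, had 1224 UMIs in 27 of 30 NK-gate barcodes and 37 UMIs in 2 of the other 88. Calca, which encodes the neuropeptide CGRP, had 195 UMIs in 7 of the 10 ILC2-gate barcodes and 60 UMIs in 4 of the other 108.

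Lymphoid barcodes were a small share of both preparations. Members were 6.08% (4.77 to 7.62) of kept barcodes in the LNP-CRISPR library and 4.07% (3.03 to 5.34) in the vehicle library, a ratio of 1.49 (1.02 to 2.20). Gated lymphoid barcodes were 3.91% (2.86 to 5.19) in the LNP-CRISPR library and 2.66% (1.82 to 3.73) in the vehicle library, and that ratio of 1.47 (0.914 to 2.39) had an interval that holds 1. T-gate barcodes were 1.82% and 1.33%, NK-gate barcodes 1.56% and 0.997%, and ILC2-gate barcodes, with the satellite-marker barcode, 0.608% and 0.332% of kept LNP-CRISPR and vehicle barcodes. Each of these 3 ratios had an interval that holds 1.

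Some sets of other white cells also differed in share. Barcodes with a Ptprc UMI, which marks all leukocytes, were 39.5% of kept barcodes in the LNP-CRISPR library and 28.5% in the vehicle library. Non-member barcodes with at least 1% of UMIs from the neutrophil genes S100a8 and S100a9, and no Pdgfra UMI, were 11.7% in the LNP-CRISPR library and 2.08% in the vehicle library. A macrophage rule asked for at least 1% of UMIs from Lyz2, C1qa and Cd74, a Ptprc UMI, no Pdgfra UMI and not the neutrophil rule. Barcodes that met it were 11.02% in the LNP-CRISPR library and 12.46% in the vehicle library. That ratio of 0.885 (0.693 to 1.13) had an interval that holds 1. Cd74 is also a dendritic cell marker, so this set need not hold macrophages only. Among barcodes with a Ptprc UMI, gated lymphoid barcodes were 9.89% in the LNP-CRISPR library and 9.33% in the vehicle library, a ratio of 1.06 (0.659 to 1.72).

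The make-up of the gated barcodes was close in both libraries. T-gate barcodes were 21 of 45 in the LNP-CRISPR library (46.7%, interval 31.7 to 62.1) and 16 of 32 in the vehicle library (50%, interval 31.9 to 68.1). NK-gate barcodes were 18 of 45 (40%) in the LNP-CRISPR library and 12 of 32 (37.5%) in the vehicle library. ILC2-gate barcodes were 6 of 45 (13.3%) in the LNP-CRISPR library and 4 of 32 (12.5%) in the vehicle library. At these numbers a difference in make-up smaller than the intervals was not detectable.

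**Figure D2:**
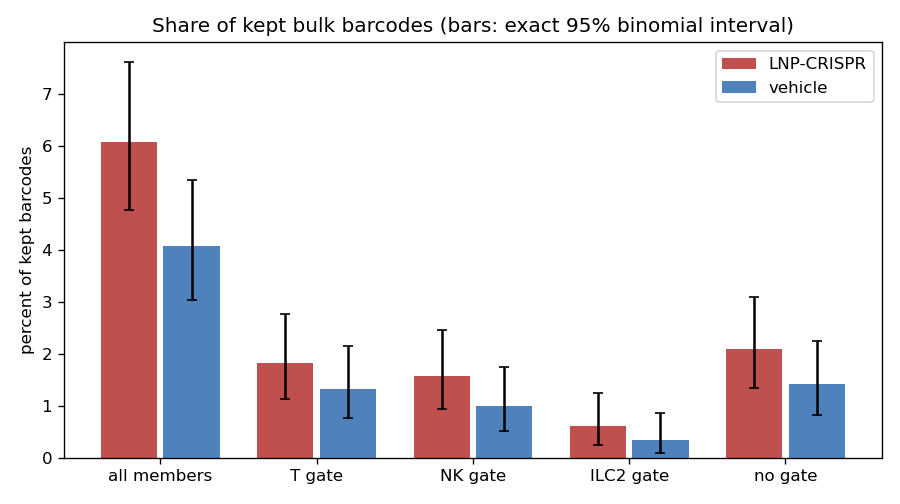
Members and gates as a percentage of kept barcodes, LNP-CRISPR left of vehicle, with exact 95% binomial intervals that cover counting error only. Every group was a larger share of the LNP-CRISPR library, and the intervals of both libraries overlap in each group, with the ILC2 gate drawn with its satellite-marker barcode.

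Within the T gate, most barcodes could not be assigned to the helper or the cytotoxic lineage. Cd8a or Cd8b1, the cytotoxic T cell coreceptor, was detected without Cd4 in 4 of 21 LNP-CRISPR and 6 of 16 vehicle barcodes. Cd4, the helper T cell coreceptor, was detected without Cd8 in 3 of 21 LNP-CRISPR and 1 of 16 vehicle barcodes. Neither was detected in 13 of 21 LNP-CRISPR and 9 of 16 vehicle barcodes, and both in 1 LNP-CRISPR barcode. Foxp3, the transcription factor of regulatory T cells, had a UMI in 2 LNP-CRISPR and 1 vehicle barcodes. Trdc, the constant region of the gamma delta T cell receptor, had a UMI in 2 barcodes of each library. All 37 T-gate barcodes held a Trac, Trbc1 or Trbc2 UMI, which is not decisive because Trbc1 was also detected in 17 of 18 LNP-CRISPR and 8 of 12 vehicle NK-gate barcodes.

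Of 4 T-gate barcodes without Cd3e, 2 resembled the ILC2 gate. The LNP-CRISPR one held 111 Il5, 16 Gata3, 43 Il1rl1 and 50 Calca UMIs, and the vehicle one held 32 Il5, 14 Gata3, 13 Il1rl1 and 7 Calca UMIs. Il1rl1 encodes ST2, the interleukin 33 receptor. Another, from the LNP-CRISPR library, held 32 Gzma and 2 Ncr1 UMIs, genes of NK cells. All were kept in the T gate.

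Levels were compared between libraries gene by gene. A gene was called past 2-fold if its CPM ratio, LNP-CRISPR over vehicle, was at least 2 or at most 0.5, its interval did not hold 1, and it stayed past 2-fold without the top barcode of each library. In ratios, leaving out the top barcode removed its UMIs of that gene but kept its other UMIs in the total. For Cas9 levels, and for values with the 2 Cd3e-free T-gate barcodes added, the top barcode was left out in full. The 2-fold call is a rule of size, not a test.

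In the T gate, several effector genes were higher in the LNP-CRISPR library. Of 1535 genes with at least 30 UMIs there, 107 were called higher (6.97%) and 19 lower (1.24%), 8.21% in all. Ccl5, a chemokine of effector lymphocytes, was detected in 10 of 21 LNP-CRISPR T-gate barcodes, with a median of 0 and a highest value of 234 UMIs, and in 3 of 16 vehicle barcodes, with a median of 0 and a highest value of 50. Summed, that was 2323 CPM (2113 to 2547) in LNP-CRISPR and 771 CPM (622 to 946) in vehicle T-gate barcodes, a ratio of 3.01, and 3.17 without the top barcode of each library. Gzmb, granzyme B, was detected in 6 of 21 LNP-CRISPR and 2 of 16 vehicle barcodes, at 201 CPM and 33.5 CPM, a ratio of 5.99 (2.16 to 23.1). Of the 39 LNP-CRISPR Gzmb UMIs, 11 lay in a barcode that also held 7 UMIs of the regulatory T cell gene Foxp3. Ikzf2, which encodes the transcription factor Helios, had 96 UMIs in 11 of 21 LNP-CRISPR barcodes and 13 UMIs in 5 of 16 vehicle barcodes, a ratio of 4.54 (2.53 to 8.83), and 3.87 without a barcode rich in the myeloid transcript Lyz2 that is described below. Of the 7 measured genes of the cytotoxic granule and NK receptor list, Gzma, Gzmb, Tyrobp and Fcer1g were called higher, and Gzma lay in 2 barcodes, with 32 of its 37 UMIs in the Ncr1 barcode. The same Lyz2-rich barcode was the top LNP-CRISPR T-gate barcode for Tyrobp, with 17 UMIs, and for Fcer1g, with 12. Without it, the Tyrobp ratio was 3.62 (1.22 to 14.5) and the Fcer1g ratio 2.76 (1.004 to 9.40). Most T-gate barcodes of both libraries had no UMI of Ccl5 or Gzmb, and the groups overlap for each of these genes.

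Cd8 calls did not move the same way, since 4 of 21 LNP-CRISPR and 6 of 16 vehicle barcodes held Cd8 without Cd4. That count leaves out the LNP-CRISPR barcode with both, which held 11 Cd8a, 29 Cd8b1 and 3 Cd4 UMIs, and 11 Gzmb UMIs. Nkg7, a rule gene of cytotoxic granules, had a UMI in 8 of 21 LNP-CRISPR and 7 of 16 vehicle T-gate barcodes. Trbc1, 1 of 2 nearly identical beta chain constant genes between which reads can be split wrongly, was 845 CPM in LNP-CRISPR and 243 CPM in vehicle T-gate barcodes. Its copy Trbc2 was 731 CPM in LNP-CRISPR and 863 CPM in vehicle T-gate barcodes.

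In the NK gate, Gzmb and Ccl4 were lower in the LNP-CRISPR library and Xcl1, Klra7 and Klra8 higher. The cytotoxic granule and NK receptor list had 2 genes called higher and 2 lower of 22 measured, and the effector cytokine list had Xcl1 higher and Ccl4 lower of 4. Of 1234 genes measured there, 38 were called higher (3.08%) and 33 lower (2.67%), 5.75% in all. Gzma had a lowest, median and highest value of 0, 19.5 and 149 UMIs in 18 LNP-CRISPR NK-gate barcodes, and of 1, 49.5 and 89 UMIs in 12 vehicle barcodes. Summed, that was 3873 CPM (3580 to 4184) in LNP-CRISPR and 7598 CPM (6992 to 8242) in vehicle NK-gate barcodes, a ratio of 0.510 that lay just inside the 2-fold limit. Gzmb, called lower, was 325 CPM in LNP-CRISPR and 917 CPM in vehicle NK-gate barcodes, a ratio of 0.354 (0.244 to 0.512), and 0.404 without the top barcode of each library. Ccl5 was 6423 CPM in LNP-CRISPR and 11030 CPM in vehicle NK-gate barcodes, a ratio of 0.582, and Prf1, perforin, 415 CPM and 734 CPM, a ratio of 0.566. Ccl4, a chemokine and also called lower, was 295 CPM in LNP-CRISPR and 681 CPM in vehicle NK-gate barcodes, a ratio of 0.433 (0.287 to 0.652). The barcodes of both libraries overlap for all 5 genes. The NK gate also differed in NK markers between the libraries. Ncr1 had a UMI in 7 of 18 LNP-CRISPR and 9 of 12 vehicle barcodes, and Gzma in 15 of 18 and 12 of 12. The NK list, which holds Gzma, Prf1 and Ncr1, had a median of 7351 CPM in LNP-CRISPR and 13081 CPM in vehicle NK-gate barcodes. The part of gate make-up in the NK-gate ratios was not tested. Whether the T-gate and NK-gate ratios of Ccl5 and Gzmb differ could not be tested with 1 library per group.

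Other NK-gate genes were higher in the LNP-CRISPR library. Xcl1, the chemokine lymphotactin that attracts cross-presenting dendritic cells, was detected in 15 of 18 LNP-CRISPR barcodes, with a median of 5 UMIs, and in 6 of 12 vehicle barcodes, with a median of 0.5. Summed, it was 806 CPM (675 to 955) in LNP-CRISPR and 301 CPM (191 to 452) in vehicle NK-gate barcodes, a ratio of 2.67, and 3.02 without the top barcode of each library. Tcf7, a transcription factor of early and resting lymphocytes, had a UMI in 11 of 18 LNP-CRISPR and 2 of 12 vehicle barcodes, a ratio of 3.56 (1.26 to 13.9). Odc1, an enzyme of polyamine synthesis, had 43 UMIs in LNP-CRISPR and 2 in vehicle NK-gate barcodes, a ratio of 9.87 (2.57 to 84.1). All 3 were called higher.

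The Ly49 receptors, a family of closely related NK receptors for MHC class I whose reads can be assigned to the wrong copy, split in direction. Klra8 was 631 CPM in LNP-CRISPR and 262 CPM in vehicle NK-gate barcodes, a ratio of 2.41, and Klra7 was 355 CPM and 131 CPM, a ratio of 2.71. With each barcode thinned at random to 1000 UMIs, the Klra8 ratio was 1.23 over all members and 7.11 over gated barcodes, against 3.22 and 2.87 unthinned. Both sets held the same Klra8 UMIs before thinning, 107 in LNP-CRISPR and 20 in vehicle barcodes. Random thinning leaves few of them, so the size of the ratio at equal depth is not settled. Klra9 was 114 CPM in LNP-CRISPR and 341 CPM in vehicle NK-gate barcodes, a ratio of 0.335, detected in 3 of 18 and 8 of 12. Klra4 was 499 CPM in LNP-CRISPR and 655 CPM in vehicle NK-gate barcodes, a ratio of 0.762. Eomes, the transcription factor that marks NK cells, was 523 CPM in LNP-CRISPR and 550 CPM in vehicle NK-gate barcodes, with intervals that overlap. Ifng, interferon gamma, was low in both, at 114 CPM in LNP-CRISPR and 131 CPM in vehicle NK-gate barcodes.

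The membership rule did not use Il5, but the ILC2 gate did, so its place in that gate is part of the choice. Over all members, Il5 had 595 UMIs in 7 of 70 LNP-CRISPR barcodes and 78 UMIs in 4 of 49 vehicle barcodes, a ratio of 4.59 (3.62 to 5.89), and 3.53 without the top barcode of each library. Il5 (ENSMUSG00000036117, chr11:53720794-53725106 on GRCm38, plus strand) had 1, 2, 27, 41, 88 and 325 UMIs in the 6 LNP-CRISPR ILC2-gate barcodes, and 0, 4, 10 and 32 UMIs in the 4 vehicle ones. The values of both libraries overlap, and 3 of the 6 LNP-CRISPR values lay above the highest vehicle value. Summed, Il5 was 8200 CPM (7485 to 8964) in LNP-CRISPR and 1557 CPM (1140 to 2077) in vehicle ILC2-gate barcodes. With the 2 Cd3e-free T-gate barcodes that were singled out for their Il5 added, which makes the value a description of that choice, it was 8774 CPM in 7 LNP-CRISPR and 2028 CPM in 5 vehicle barcodes, a ratio of 4.33 (3.41 to 5.55), and 3.14 without the top barcode of each library. The single barcode with 325 UMIs gave most of the LNP-CRISPR total. Il5 had 0 UMIs in the NK gate of both libraries, and 3 of 1082 LNP-CRISPR and 0 of 1155 vehicle non-member barcodes held a UMI of it.

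The other type 2 genes had smaller ratios, and for Areg the direction turned with the set of barcodes. Il13 (ENSMUSG00000020383) had 0 UMIs in gated LNP-CRISPR barcodes and 2 UMIs, both in the Cd3e-free T-gate barcode with Il5, in gated vehicle barcodes, so no difference was detectable. Il4, another cytokine of the locus, had 0 UMIs in both. In the ILC2 gate, Gata3, a rule gene, had a lowest, median and highest value of 3, 25 and 78 UMIs in LNP-CRISPR and of 5, 16 and 29 UMIs in vehicle barcodes. Il1rl1 was 610 CPM (427 to 844) in LNP-CRISPR and 1422 CPM (1025 to 1922) in vehicle ILC2-gate barcodes, a ratio of 0.429. With the same 2 Cd3e-free barcodes added, the Il1rl1 ratio was 0.815 (0.570 to 1.17). Calca was 1576 CPM in LNP-CRISPR and 3453 CPM in vehicle ILC2-gate barcodes, a ratio of 0.456, and 0.711 without its UMIs in the top barcode of each library. With the 2 barcodes added, the Calca ratio was 0.744 (0.576 to 0.963), and 1.02 with the top barcode of each library left out in full. Areg, the repair factor amphiregulin, was 254 CPM (142 to 419) in LNP-CRISPR and 406 CPM (210 to 710) in vehicle ILC2-gate barcodes, with intervals that overlap. With the 2 barcodes added, Areg was 428 CPM in LNP-CRISPR and 338 CPM in vehicle barcodes, a ratio of 1.26 (0.637 to 2.65). Rora, a transcription factor needed for ILC2 development, was 2761 CPM in LNP-CRISPR and 3352 CPM in vehicle ILC2-gate barcodes. The macrophage and monocyte list was 356 CPM in LNP-CRISPR and 1253 CPM in vehicle ILC2-gate barcodes, and its part in these differences was not tested.

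**Figure D3:**
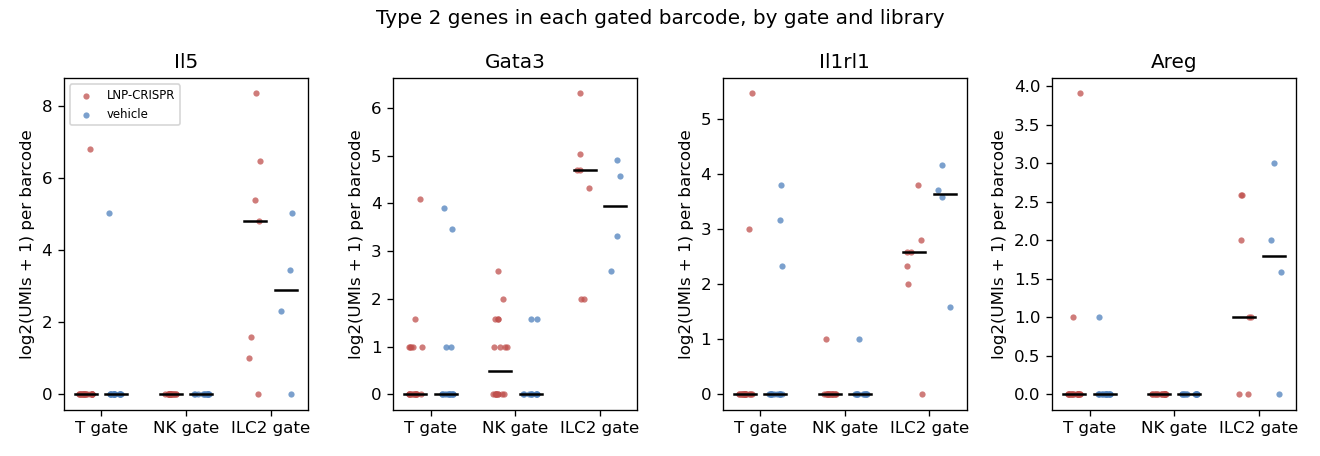
UMIs of Il5, Gata3, Il1rl1 and Areg in each gated barcode as log2(UMIs + 1), LNP-CRISPR left of vehicle, with a bar at the median and with the satellite-marker barcode drawn in the ILC2 gate. The LNP-CRISPR ILC2 gate holds the 325-UMI Il5 barcode, while Il5 is at 0 in every NK-gate barcode.

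Over all gated lymphoid barcodes, lymphocyte genes such as Ikzf2, Xcl1, Il5 and Gimap4 were higher in the LNP-CRISPR library. Of 3090 genes with at least 30 UMIs, 95 were called higher (3.07%) and 34 lower (1.1%), 4.17% in all. The 10 higher genes ranked first were Cas9, Ikzf2, Zfp52, Klra8, Xcl1, Il5, Gimap4, Klra7, Ptgs2 and Ccdc82. The 10 lower ones were Fam241a, Klra9, Chuk, Ldb1, Mrps33, Srp54a, Gm20186, Hist1h1c, Pdha1 and Pts. Depth moved with the groups, with a median of 8960 UMIs in gated LNP-CRISPR and 6872.5 in gated vehicle barcodes, and its part in these calls was not tested.

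Gimap4, which encodes a GTPase of lymphocytes, was detected in most gated LNP-CRISPR barcodes. It had a UMI in 37 of 45 gated LNP-CRISPR barcodes, with a median of 3 and a highest value of 17 UMIs, and in 15 of 32 gated vehicle barcodes, with a median of 0 and a highest value of 10. Summed, it was 489 CPM (424 to 560) in LNP-CRISPR and 182 CPM (131 to 247) in vehicle gated barcodes, a ratio of 2.68, and 3.26 without the top barcode of each library. It was called higher in the T gate (2.22) and in the NK gate (2.98). Ikzf2 was 303 CPM in LNP-CRISPR and 71.1 CPM in vehicle gated barcodes, a ratio of 4.26 (2.52 to 7.68). Ptgs2, cyclooxygenase 2, was 110 CPM in LNP-CRISPR and 39.97 CPM in vehicle gated barcodes, a ratio of 2.74 (1.33 to 6.37), and was detected in 9 and 3 barcodes. Among the lower genes, Chuk, which encodes IKK alpha, had UMIs in 10 of 45 LNP-CRISPR and 17 of 32 vehicle gated barcodes, a ratio of 0.332 (0.153 to 0.695). Ldb1, a cofactor of LIM and GATA transcription factors, was 42.9 CPM in LNP-CRISPR and 120 CPM in vehicle gated barcodes, a ratio of 0.358. Pdha1, a subunit of pyruvate dehydrogenase, was 57.2 CPM in LNP-CRISPR and 147 CPM in vehicle gated barcodes, a ratio of 0.390.

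The detection of these genes in other barcodes gives the background. Among the non-member barcodes, with a median of 16688.5 UMIs in the LNP-CRISPR and 23545 in the vehicle library, Gimap4 had a UMI in 1.39% and 0.779%, and Xcl1 in 0.832% and 0.173%. Ccl5 had a UMI in 5.08% of LNP-CRISPR and 3.46% of vehicle non-members, and Gzma in 1.20% and 0.606%. Ikzf2 had one in 10.2% of LNP-CRISPR and 13.3% of vehicle non-members, at 9.26 CPM and 8.88 CPM, far below its level in gated barcodes.

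**Figure D4:**
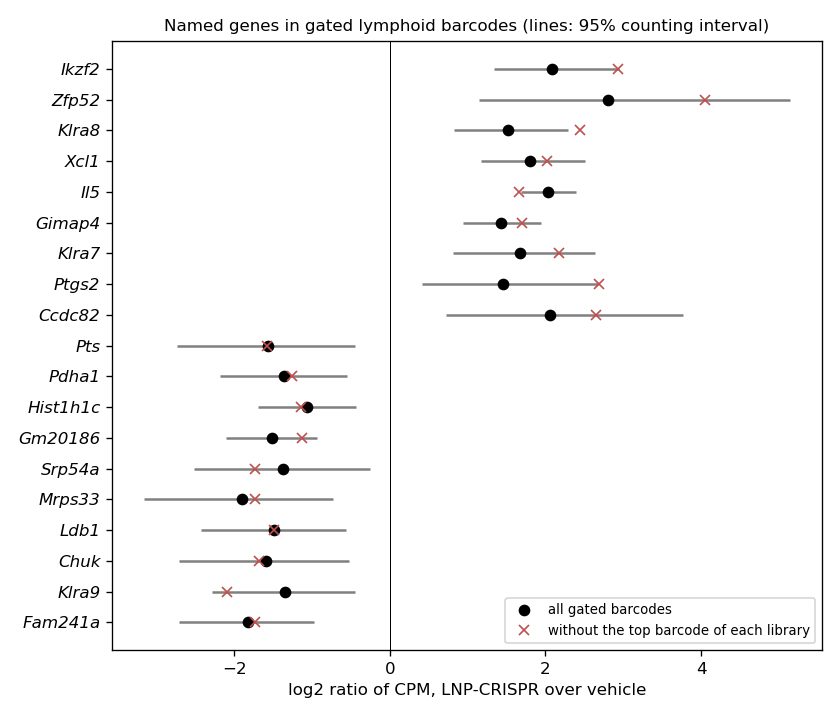
Log2 ratio of CPM, LNP-CRISPR over vehicle, for 19 of the 20 genes ranked first in gated lymphoid barcodes, with Cas9 left out because vehicle had 0 UMIs. Points are all gated barcodes with 95% counting intervals, and crosses leave out the UMIs of each gene in its top barcode of each library. Every gene lies on the same side of 0 for both, which the choice of genes required.

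Genes that respond to interferon mostly had ratios above 1, and those called were in the T gate and in all gated barcodes. Of 41 listed genes, 19 were measured in gated barcodes and 16 had a ratio above 1, with a median log2 ratio of 0.60, beside 0.05 over all 3090 genes. The 6 called higher were Isg15, Ifi27l2a, Ifitm3, Zbp1, Gbp7 and Psmb9, and none was called lower. Of all 3090 genes, 55.0% had a ratio above 1 and 3.07% were called higher. In the T gate, 11 of 11 measured genes had a ratio above 1, with a median of 1.09, beside 0.14 over all 1535 genes measured there. Of these 11, 5 were called higher, among them Ifi27l2a, Ifitm3, Ly6a and Parp14. Of all 1535 genes, 60.1% had a ratio above 1 and 6.97% were called higher. In the NK gate, 2 of 4 measured interferon genes had a ratio above 1, with a median of 0.11, and none was called. Of all genes measured in that gate, 48.2% had a ratio above 1. The difference between gates was not tested.

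A few barcodes gave much of this. The summed list was 5268 CPM in LNP-CRISPR and 2398 CPM in vehicle T-gate barcodes, but the medians over barcodes were closer, at 2879 CPM in LNP-CRISPR (lowest 1233, highest 12796) and 2265 CPM in vehicle (lowest 966, highest 5585). In the NK gate it was 2448 CPM in LNP-CRISPR and 2803 CPM in vehicle barcodes, and in the ILC2 gate 2711 CPM in LNP-CRISPR and 3149 CPM in vehicle barcodes. One LNP-CRISPR T-gate barcode also held 65 Lyz2 UMIs, a myeloid transcript, and it gave 44 of the 56 Ifitm3 UMIs of gated LNP-CRISPR barcodes. Without it, the list was 4347 CPM in LNP-CRISPR T-gate barcodes. Another barcode gave 28.8% of the list's UMIs in the full LNP-CRISPR T gate. Without the Lyz2-rich barcode, Ifi27l2a was 3.79 (2.44 to 6.13) in the T gate as LNP-CRISPR over vehicle. The interval of Ifitm3 then held 1 (0.740 to 245). A single barcode still held 91 of the remaining 132 LNP-CRISPR T-gate Ifi27l2a UMIs, and the top vehicle barcode held 7 of 24. The ratio without both LNP-CRISPR barcodes was not calculated. Over all gated barcodes without the Lyz2-rich barcode, Zbp1, a sensor of nucleic acids, was 1.91 (0.843 to 4.86). Psmb9, an immunoproteasome subunit, was 2.97 (1.38 to 7.32). Ifi27l2a over all gated barcodes was 3.59 as LNP-CRISPR over vehicle, but 0.711 with each barcode thinned at random to 1000 UMIs. Such thinning leaves few UMIs and gives barcodes about equal weight, so the cause of the turn was not tested. The direction of Ifi27l2a at equal depth is not settled.

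Marker lists of other cell types also moved with the groups. The neutrophil list summed to 160 CPM in LNP-CRISPR and 66.6 CPM in vehicle gated barcodes, with 6 of 6 genes detected in LNP-CRISPR and 4 of 6 in vehicle (Csf3r and Il1b at 0). Its range over barcodes was 0 to 1084 CPM in LNP-CRISPR and 0 to 374 CPM in vehicle. The macrophage and monocyte list summed to 1148 CPM in LNP-CRISPR T-gate barcodes (0 to 4344, with C1qa, C1qc, Adgre1 and Mrc1 at 0) and to 469 CPM in vehicle ones (0 to 966, with C1qa, Csf1r and Adgre1 at 0). Of its T-gate UMIs, Ly6c2 gave 107 of 223 in LNP-CRISPR and 24 of 56 in vehicle barcodes. The Lyz2-rich barcode alone held 65 Lyz2 UMIs. The list was 457 CPM in LNP-CRISPR and 498 CPM in vehicle NK-gate barcodes, and lower in LNP-CRISPR in the ILC2 gate, as given above. Ifi27l2a was 863 CPM in LNP-CRISPR and 872 CPM in vehicle barcodes that met the macrophage rule. The part of RNA from other cells in the T-gate differences was not tested, nor which cells the Ly6c2 RNA came from.

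The other lists are given for gated barcodes by their median log2 ratio, LNP-CRISPR over vehicle, beside 0.05 over all genes. Of all 3090 genes measured there, 55.0% were above 0, 3.07% were called higher and 1.1% lower. T cell receptor signalling (17 measured, 7 above 0, median -0.09) and the ILC2 and type 2 list (16 measured, 8 above 0, median -0.08) had no gene called. The cytotoxic granule and NK receptor list (24 measured, 10 above 0, median -0.04) had Klra7 and Klra8 called higher and Klra9 lower. The activation and NF-kB list (26 measured, 16 above 0, median 0.16), the checkpoint list (3 of 3 above 0, median 0.14) and the gamma chain cytokine receptor and STAT5 list (12 measured, 4 above 0, median -0.11) had none called. Of the regulatory T list (7 measured, median 0.14) Ikzf2 was called higher, of the effector cytokine list (8 measured, median 0.07) Xcl1, of the cell cycle list (6 measured, median 0.36) Stmn1, and of the MHC class I list (18 measured, 13 above 0, median 0.12) Psmb9 and Psmb10. B2m, the light chain of MHC class I, had a ratio of 1.16, and its heavy chain genes H2-D1 and H2-K1 were not called.

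The last 3 lists had medians further below 0, and their counts stand beside 55.0% of all genes above 0 and 1.1% called lower. All 4 measured genes of the gamma delta T and interleukin 17 list were below 0, with a median of -1.05, and Trdv4 and Cd163l1 were called lower. Cd163l1, a scavenger receptor of gamma delta T cells, had 18 UMIs in 2 LNP-CRISPR barcodes and 27 in 2 vehicle barcodes, so its ratio of 0.358 rests on 4 barcodes. Il17a, interleukin 17A, had 9 UMIs in 1 LNP-CRISPR barcode and 4 UMIs in 2 vehicle barcodes. Of the trafficking and residency list, 3 of 15 genes were above 0, with a median of -0.40 and none called. Klf2, which keeps lymphocytes circulating, was 379 CPM (322 to 443) in LNP-CRISPR and 697 CPM (593 to 815) in vehicle gated barcodes, a ratio of 0.544, and S1pr1, the receptor for exit from tissue, was 126 CPM and 182 CPM in LNP-CRISPR and vehicle. Of the immediate early and heat shock list, 7 of 22 were above 0, with a median of -0.24 and none called.

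Counted over all 119 members, as the rule gives them, 177 of 5986 genes were called higher in the LNP-CRISPR library (2.96%) and 86 lower (1.44%), 4.39% in all. In the ungated members, 3.13% of 3862 genes were called higher and 1.97% lower, 5.1% in all. Only 27 of the 177 were among the 95 of the gated barcodes (15.3% of the first list and 28.4% of the second), and 6 of the 86 among the 34. Myeloid genes of the ungated barcodes were prominent. Spp1, osteopontin, was 10737 CPM in LNP-CRISPR and 2071 CPM in vehicle ungated members, and 14.3 CPM and 8.88 CPM in gated LNP-CRISPR and gated vehicle barcodes, and 1 LNP-CRISPR barcode held 2899 of the 5054 UMIs in ungated LNP-CRISPR members. Il1rn, the interleukin 1 receptor antagonist, was 1015 CPM in LNP-CRISPR and 239 CPM in vehicle ungated members. Vcan, versican, was 80.7 CPM in LNP-CRISPR and 569 CPM in vehicle ungated members, Il1b, interleukin 1 beta, 91.4 CPM and 393 CPM, and Chil3, a chitinase-like protein of monocytes, 321 CPM and 753 CPM. The genes ranked first over all members included Cas9, Ikzf2, Il1rn, Klra8, Spp1, Nkap, Xcl1, Il5, Hells and Gimap4 among the higher, and Vcan, Il1b, Ednrb, Chil3, Gdf15, Ccnf, Pnpla7, F7 and Wdr91 among the lower. These ratios describe a mixture, and the gated values above are those of the lymphoid classes.

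Cas9, the nuclease of the delivered editor, was counted as a gene of its own and checks the labels. It had 364 UMIs in the 70 LNP-CRISPR members and 0 UMIs in the 49 vehicle members, and 0 in all 1204 kept vehicle barcodes. In gated lymphoid barcodes it was 112 CPM (82.3 to 149) in the LNP-CRISPR library and 0 in the vehicle library, where 3 counts would be 13.3 CPM. Ungated members had 665 CPM (593 to 743), macrophage-rule barcodes 397 CPM (372 to 424), neutrophil-rule barcodes 451 CPM (387 to 523) and all non-members 1324 CPM in the LNP-CRISPR library. In ungated members 1 barcode held 128 of the 313 Cas9 UMIs. Without the top barcode of each set, ungated members had 407 CPM, macrophage-rule barcodes 352 CPM and neutrophil-rule barcodes 320 CPM. Non-members then had 1257 CPM and gated lymphoid barcodes 67.6 CPM. The interval of the gated lymphoid barcodes lay below the intervals of all of these sets.

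Among the lymphoid gates, the T gate had the most Cas9 UMIs, but 1 barcode gave much of its level. The 21 LNP-CRISPR T-gate barcodes had 201 CPM (143 to 275), with a UMI in 6, at least 4 UMIs in 3 and a highest value of 19. Without that barcode the T gate had 106 CPM, which lies inside the ILC2-gate interval. The 18 NK-gate barcodes had 24.1 CPM (6.55 to 61.6), with 1 UMI in each of 4, and the 6 ILC2-gate barcodes had 67.8 CPM (18.5 to 174), with a UMI in 2. The NK-gate barcodes had a median of 8297.5 UMIs and barcodes that met a glial rule a median of 8361, and these glial-rule barcodes had 23.4 CPM (4.83 to 68.5), with a UMI in 3 of 19, and the intervals of the NK gate and the glial rule overlap almost fully. No cell type in this tissue is known to lack the delivered RNA, and the part of free RNA in any of these values was not tested. Thinned to 1000 UMIs per barcode, Cas9 was found in 2 of 21 T-gate, 0 of 18 NK-gate and 8 of 24 ungated LNP-CRISPR barcodes. The T-gate barcode with 65 Lyz2 UMIs held no Cas9 UMI.

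**Figure D5:**
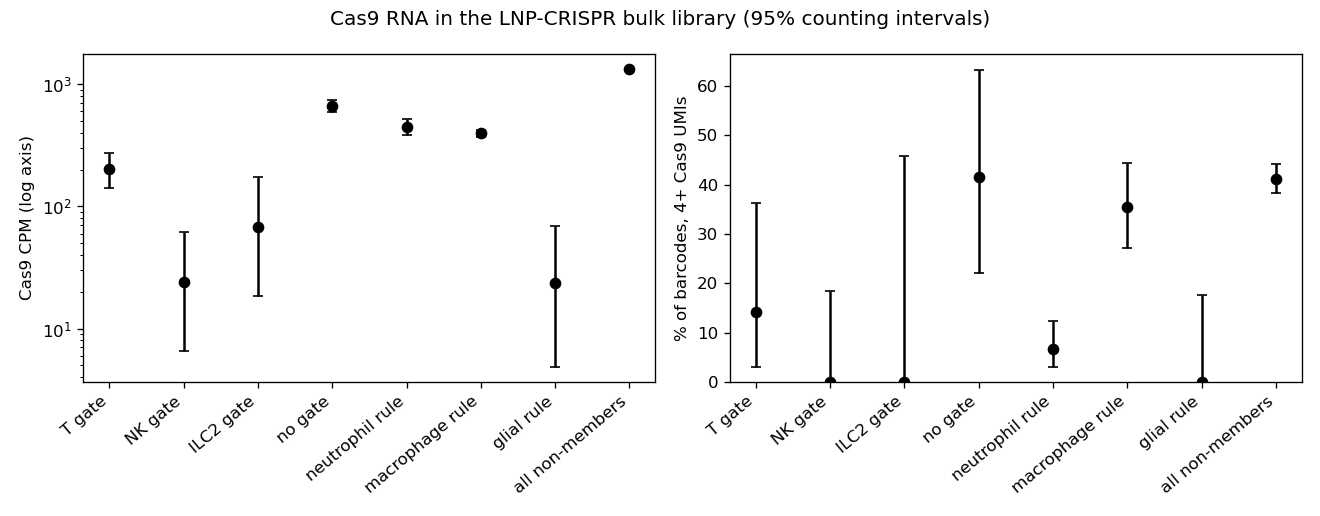
Cas9 RNA in the LNP-CRISPR Bulk library, as CPM on a log axis on the left and as the percentage of barcodes with at least 4 Cas9 UMIs on the right, with exact 95% counting intervals. The NK gate and the glial rule are lowest, at 24.1 and 23.4 CPM, and all non-members highest, at 1324 CPM.

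In the libraries made with the satellite cell isolation kit, the rule found 3 barcodes of 1907 in the LNP-CRISPR library, all in the T gate, and 0 of 1411 in the vehicle library, where a share of up to 0.261% is allowed. Barcodes with a Ptprc UMI were 14 in the LNP-CRISPR and 3 in the vehicle kit library, too few to describe.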

How the data were processed

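Droplet 3′ libraries (10x Genomics v3.1) were deposited as UMI count matrices of genes by barcodes, 1 library per group. Per the file headers the counts were written by cellranger 5.0.1, whereas version 7.0.1 of Cell Ranger, with mm10, is listed in the submitters' processing notes. Strand use and filters are not given in the sources used here. Of 32286 features, 32235 had an ID in GENCODE M21 (GRCm38), and Cas9 is a feature of the deposited matrices.

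The members and gene lists were chosen with earlier results of these data known. The gated lymphoid barcodes and the comparisons restricted to them were added after seeing the data, as were the comparisons within gates and the ILC2-gate values with 2 T-gate barcodes added. UMIs were summed over barcodes and divided by nuclear-encoded UMIs (CPM). Shares have exact Clopper-Pearson intervals, levels exact Poisson intervals and ratios exact conditional binomial intervals. PCR duplicates are removed by UMI, but barcodes are not replicates, so intervals cover counting error only. With 1 library per group no test could be made, and the separate effects of treatment, animal and library cannot be told apart.

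Kept barcodes numbered 1152 in the LNP-CRISPR Bulk library, with a median of 16052.5 UMIs, and 1204 in the vehicle Bulk library, with a median of 22503.5 UMIs. Genes needed 30 UMIs over both libraries. Named genes were the rule genes and Il5, the 10 genes ranked first in each direction among those past 2-fold (by the interval bound nearest 1 without the top barcode, with UMIs in at least 5 members of the higher library), the 3 members of each of 14 lists with the most UMIs, and the 10 genes most enriched in each gate. Other genes were named after their values were seen. A few genes that the rule names are not reported here. Comparison barcodes had at least 1% of UMIs from neutrophil, macrophage or glial markers and no Pdgfra UMI. The macrophage rule also asked for a Ptprc UMI, and the glial rule for none. Scrublet, in scanpy 1.11.5, called 3 LNP-CRISPR and 5 vehicle barcodes doublets, at most 0.415%, which is too few to rely on, and no member was among them, so none was removed. Python 3.11.15, numpy 2.4.6, scipy 1.17.1, pandas 2.3.3 and matplotlib 3.10.9 were used. The ratio intervals were checked on simulated counts.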

Additional observations from a re-analysis of the deposited data

How the results depend on the processing

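The ratio of member shares, LNP-CRISPR over vehicle, lay between 1.08 (of barcodes with a Ptprc UMI) and 1.66 under 10 alternatives, but its interval held 1 in that case, with at least 5 rule UMIs and for gated barcodes. Counts of genes past 2-fold were less stable, and the cause was not tested. Over members, 177 higher and 86 lower became 62 and 20 with at least 60 UMIs per gene, 15 and 6 with barcodes thinned to 1000 UMIs, and, added after seeing the data, 95 and 34 in gated barcodes, 107 and 19 in the T gate and 38 and 33 in the NK gate. Over gated barcodes, 95 higher and 34 lower became 35 and 6 with at least 60 UMIs and 3 and 3 after thinning. Cas9 in LNP-CRISPR members moved from 372 CPM to 413 as a mean over barcodes, 245 without the top barcode, 261 with at least 5 rule UMIs and 112 in gated barcodes. Of 68 genes named over members, 18 changed direction in 26 of 384 values. With the T, NK and ILC2 gates weighted equally the ratio became 1.49 (Vcan), 1.20 (Gdf15), 1.88 (Ccnf), 2.36 (Capg), 4.38 (Nrp1), 0.789 (Rgs1), 0.738 (Pim1), 11.6 (Ifitm3), 0.859 (Junb), 0.981 (Nkg7) and 0.588 (Gata3). In gated barcodes it became 1.10 (Odc1), 1.68 (Capg) and 10.0 (Ifitm3), and with barcodes weighted equally 1.04 (Capg), 1.08 (Nrp1), 1.22 (Maf), 0.966 (Hmgb2) and 0.886 (Nkg7). After thinning it became 1.40 (Capg), 1.08 (Maf) and 0.595 (Tubb5), with at least 5 rule UMIs 1.67 (Chil3) and 1.07 (Capg), and without the top barcode 1.01 (Ccl4) and 1.01 (Btg1). Of 66 genes named over gated barcodes, 6 changed direction in 7 of 300 values, namely Tnfrsf18 (0.702) and Ccl5 (3.01) in the T gate, Rgs2 (1.25) and B2m (0.990) in the NK gate, Ifi27l2a (0.711) and B2m (0.999) after thinning, and Hmgb2 (0.968) without the top barcode. No paired analysis was possible because the labels carry no replicate numbers and each group is 1 library. Depth limits these data to genes of at least 30 UMIs over 77 gated barcodes.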
